A study of Mus musculus with 28 samples.

Results

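A set of 10 genes known in the brain from radial glia and astrocytes, Fabp7, Slc1a3, Slc1a2, Aldh1l1, Aqp4, S100b, Glul, Aldoc, Gja1 and Prom1, was followed across cultured neural stem cells (NSCs) of the mouse brain, NSC-like cells grown from peripheral organs (pNSCs), neural crest stem cells (NCSCs) and whole peripheral tissue cells. The genes were chosen by name, with earlier results of these data known. All 10 had a row among the 28244 genes of the deposited count table, and each was measured in all 28 samples of 11 groups.

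The question of the study was whether cells with the properties of brain NSCs exist outside the central nervous system. In the Nes-GFP experiment, with 2 samples a group, pNSCs of adult lung (Lung-pNSC) and postnatal tail (Tail-pNSC) came from GFP+ cells of mice in which GFP follows a Nestin promoter transgene, and were set beside brain NSCs (Brain-NSC), lung cells (Lung) and tail cells (Tail). The labels name no reporter line for these 5 groups, and the line is taken from the study's text. In the Wnt1Cre-mTmG experiment, with 3 samples a group, brain NSCs, postnatal tail pNSCs and postnatal dorsal root ganglion (DRG) pNSCs carried Wnt1-Cre, active in the neural crest, and the mTmG reporter, which turns from Tomato to GFP where Cre has acted. The tail and DRG pNSCs were Tomato+ clusters, and the NCSCs came from adult wild-type DRG, with no reporter. In the Sox2-GFP experiment, with 3 samples a group, brain NSCs and GFP+ postnatal lung pNSCs came from a GFP knock-in at Sox2. All labels give strain C57BL/6, whereas the methods also name CD1 stock. The age behind each brain NSC group was not stated, the medium held EGF and bFGF, and clusters were picked by hand, so that a pNSC group may stand for few clones. The study calls the samples of a group biological replicates. Yet neither it nor the labels say whether they came from separate animals or from cultures of 1 line. The p-values below measure only the spread between these samples, pooled over genes and over the groups of a fit.

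Libraries held 9808246 to 22637031 counted reads. Samples of a group were close to counting noise (mean chi-square per gene between pairs 1.09 to 2.82, where counting noise alone gives about 1), except the third DRG NCSC sample, which stood apart from the first (16.8) and the second (21). No member comparison with NCSCs gained or lost a call without it. The NSC markers Sox2, Sox1, Pax6, Olig2, Nes and Hes5 each reached at least 1 cpm (counts-per-million, scaled by TMM) in every sample of the 8 brain NSC and pNSC groups. In the NCSCs Hes5 was at 0, while 3 of the 7 genes on the full NSC marker list reached at least 1 cpm in every sample. That list summed to 1372 to 1738 cpm there, against 2446 to 3597 in the 8 NSC and pNSC groups. The 6 Schwann and neural crest markers summed to 4255 to 4360.1 cpm in the NCSCs, against 3.83 to 72.9 in those 8 groups. Markers of 6 fibroblast genes summed to 466 to 477 in the Wnt1Cre-mTmG Tail pNSCs and to at most 17.3 in the other NSC and pNSC groups.

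Radial glia are the elongated stem cells of the embryonic neural tube, and they give rise to neurons and later to astrocytes. The adult stem cells of the brain keep many astrocyte features, so that astrocyte genes and stem cell genes overlap. Fabp7 carries fatty acids in radial glia. Slc1a3 (GLAST) and Slc1a2 (GLT-1) take up glutamate, and Glul (glutamine synthetase) turns it into glutamine. Aldoc is the aldolase of glycolysis that is typical of brain, and Aldh1l1 is a folate enzyme used as a general astrocyte marker. Aqp4 is the water channel of astrocyte endfeet, Gja1 (connexin 43) builds gap junctions, S100b binds calcium, and Prom1 (prominin-1, CD133) sits on membrane protrusions and is used to isolate stem cells.

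Levels below are counts-per-million (cpm) after TMM scaling, which corrects for library composition. A gene was called in a comparison when the Benjamini-Hochberg adjusted p of edgeR's quasi-likelihood test over all genes tested was under 0.05 and the fold change was at least 2. Errors of log2 fold changes are standard errors. Without the limit on the fold change, 8 to 10 of the 10 members would have been called in each comparison, so that most calls turned on the size of the change. RNA was taken from whole cultures or tissues, in which fewer cells of a type and less RNA per cell cannot be told apart.

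**Figure D1:**
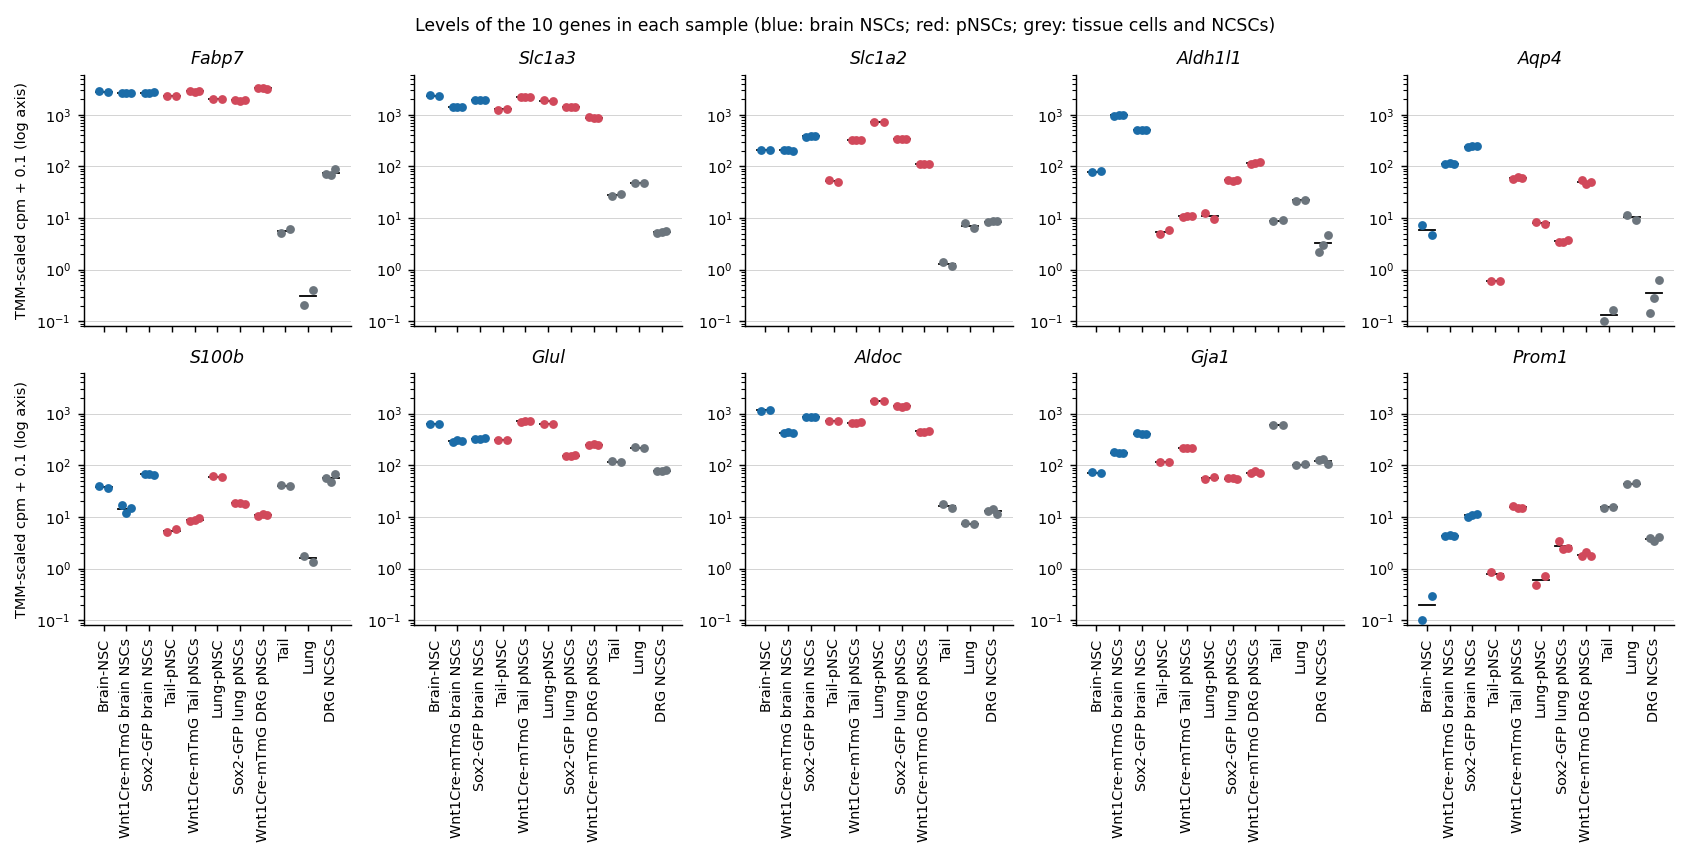
Level of each member gene in all 28 samples, as cpm plus 0.1 on a log axis, with 1 point per sample and a black bar at the mean of each of the 11 groups. Fabp7, Slc1a3 and Aldoc were high in all 8 brain NSC and pNSC groups, while Aldh1l1 and Aqp4 spread over 182-fold and 475-fold among those groups.

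Fabp7 had the widest range of the members over the 11 groups and the narrowest among the NSC and pNSC groups. It was at 2821 and 2715 cpm in Brain-NSC, 2646, 2643 and 2633 in Wnt1Cre-mTmG brain NSCs, and 2688, 2594 and 2707 in Sox2-GFP brain NSCs. In pNSCs it was at 2059 and 2000 cpm in Lung-pNSC, 2313 and 2262 in Tail-pNSC, 2826, 2807 and 2864 in Wnt1Cre-mTmG Tail pNSCs, 3229.8, 3231 and 3212 in Wnt1Cre-mTmG DRG pNSCs, and 1911, 1866 and 1940.1 in Sox2-GFP lung pNSCs. Group means thus lay within 1.69-fold of each other, the DRG pNSCs highest and the Sox2-GFP lung pNSCs lowest, and the 3 brain NSC groups lay within 1.05-fold. Elsewhere it was at 71.2, 68 and 88 cpm in DRG NCSCs, 5 and 5.93 in Tail, and 0.109 and 0.312 in Lung. Per kilobase of exon it ranked 4 to 8 of 27841 genes in the NSC and pNSC groups, 706 in NCSCs, 8745 in Tail and 16246 in Lung. Among the fatty acid binding proteins Fabp3, Fabp5 and Fabp7, it made up 96.5% to 98.2% of the cpm per kilobase in the NSC and pNSC groups, whereas Fabp5, the epidermal form, made up 93.4% in Tail and 70.4% in Lung.

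Fabp7, Slc1a3 and Aldoc were the members called in none of the comparisons of pNSCs with brain NSCs (below), and their promoters, from RefSeq on build GRCm38.p6, are shown for that reason, from 250 bases before to 50 after the annotated start. Of the 10 members, 9 had a promoter in the RefSeq table, 11 promoters in all. The windows were searched on both strands for GTGGGAA, the core site of the Notch effector RBPJ, for TTCCNGGAA, the STAT site, and for the palindromic NFI site. Capitals mark the matches, which were found only in the Aldoc windows, and the motifs do not overlap.
Fabp7, chr10:57784673-57784972, + strand: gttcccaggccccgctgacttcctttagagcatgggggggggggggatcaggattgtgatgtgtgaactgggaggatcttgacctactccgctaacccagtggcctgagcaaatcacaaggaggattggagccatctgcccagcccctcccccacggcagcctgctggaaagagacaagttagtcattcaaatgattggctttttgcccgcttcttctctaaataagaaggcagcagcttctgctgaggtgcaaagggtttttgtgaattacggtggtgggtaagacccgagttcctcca
Slc1a3, chr15:8710758-8711057, - strand: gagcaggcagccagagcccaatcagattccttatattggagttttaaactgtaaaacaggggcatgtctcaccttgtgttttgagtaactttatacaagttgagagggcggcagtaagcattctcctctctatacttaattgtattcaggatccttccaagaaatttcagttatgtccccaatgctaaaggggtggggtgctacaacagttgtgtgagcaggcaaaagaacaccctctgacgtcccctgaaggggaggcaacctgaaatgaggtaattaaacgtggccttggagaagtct
Aldoc, chr11:78322823-78323122, + strand: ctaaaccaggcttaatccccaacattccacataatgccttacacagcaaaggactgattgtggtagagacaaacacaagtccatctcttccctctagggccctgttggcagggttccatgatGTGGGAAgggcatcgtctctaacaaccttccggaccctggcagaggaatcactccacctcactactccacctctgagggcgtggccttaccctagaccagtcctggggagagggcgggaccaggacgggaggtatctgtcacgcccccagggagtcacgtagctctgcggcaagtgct
Aldoc, second start, chr11:78323948-78324247, + strand: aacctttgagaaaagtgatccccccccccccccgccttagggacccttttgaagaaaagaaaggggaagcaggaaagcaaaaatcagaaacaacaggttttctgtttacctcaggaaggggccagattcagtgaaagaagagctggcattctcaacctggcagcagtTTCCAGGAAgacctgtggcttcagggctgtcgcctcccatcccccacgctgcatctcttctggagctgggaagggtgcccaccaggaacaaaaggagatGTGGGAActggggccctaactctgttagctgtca
The RBPJ letters stood at -128 from the first Aldoc start and at 16 after the second, where the STAT letters stood at -83. Over all 32851 promoters of the table, 6.38% held the RBPJ letters, 1.15% the STAT letters and 0.0365% the NFI letters. A match of this kind is a description of the letters alone. In the annotation of GRCm38 Fabp7 lies at chr10:57784881-57788450 (+ strand) with no exon shared with another gene.

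Slc1a3 (chr15:8634124-8710764, - strand) was high in every NSC and pNSC group and low in NCSCs. Brain NSCs held 2371 and 2270.3 cpm in Brain-NSC, 1418, 1420 and 1419 in Wnt1Cre-mTmG brain NSCs, and 1929, 1937 and 1953 in Sox2-GFP brain NSCs. Among pNSCs it was at 1889 and 1869 in Lung-pNSC, 1254 and 1302 in Tail-pNSC, 2190.2, 2166 and 2185 in Wnt1Cre-mTmG Tail pNSCs, 889, 873 and 872 in Wnt1Cre-mTmG DRG pNSCs, and 1413, 1423 and 1426 in Sox2-GFP lung pNSCs. The order of groups ran from Brain-NSC to the DRG pNSCs over 2.64-fold, and only the Sox2-GFP lung pNSCs and the Wnt1Cre-mTmG brain NSCs, neighbours in that order, had overlapping samples. Lung had 47.5 and 46.6 cpm, Tail 26.2 and 29, and DRG NCSCs 4.95, 5.29 and 5.6.

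Slc1a2 (chr2:102658659-102790784, + strand) is the transporter that mature astrocytes use most, and it varied far more than Slc1a3. Its level was 211 and 204 cpm in Brain-NSC, 209, 208 and 202 in Wnt1Cre-mTmG brain NSCs, and 370.3, 392 and 386 in Sox2-GFP brain NSCs. Lung-pNSC held 709 and 708 cpm and Tail-pNSC 53.9 and 49.6, a 13.7-fold span that contains every other NSC and pNSC group. The others were 329.9, 331 and 321 in Wnt1Cre-mTmG Tail pNSCs, 110.4, 112 and 112 in Wnt1Cre-mTmG DRG pNSCs, and 345, 336 and 341 in Sox2-GFP lung pNSCs. Only Brain-NSC and Wnt1Cre-mTmG brain NSCs overlapped. NCSCs had 8.1, 8.56 and 8.63 cpm, Lung 7.88 and 6.17, and Tail 1.29 and 1.08. Per kilobase, Slc1a3 made up 80.3% (Lung-pNSC) to 97.3% (Tail-pNSC) of the summed level of Slc1a1, Slc1a2 and Slc1a3 in the NSC and pNSC groups. In the NCSCs the shares of Slc1a3 and Slc1a2 were 44% and 45.7%, of a summed level that was low. An antisense RNA, Gm13872, shares exon sequence with Slc1a2, and the strand setting of the counting was not stated.

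Glul (chr1:153899944-153909723, + strand) was measured in all 11 groups at 76.5 cpm or more, as the enzyme is used by many tissues. It was at 635 and 628 cpm in Brain-NSC, 283, 301 and 289 in Wnt1Cre-mTmG brain NSCs, and 328, 327 and 329.8 in Sox2-GFP brain NSCs. Among pNSCs it was at 616 and 618 in Lung-pNSC, 309 and 314 in Tail-pNSC, 700.1, 710 and 718 in Wnt1Cre-mTmG Tail pNSCs, 251, 253 and 251 in Wnt1Cre-mTmG DRG pNSCs, and 153, 149 and 157 in Sox2-GFP lung pNSCs. Its highest and lowest NSC or pNSC groups, the Wnt1Cre-mTmG Tail and the Sox2-GFP lung pNSCs, differed 4.63-fold. Lung (221 and 217 cpm) lay above the Sox2-GFP lung pNSCs, followed by Tail (120.5 and 115) and DRG NCSCs (76.5, 77.4 and 81.7). Glul shares exon sequence with Teddm2 on the opposite strand and with Mir8114.

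Aldoc (chr11:78322968-78327781, + strand) was at 1146 and 1165 cpm in Brain-NSC, 417, 430.3 and 426 in Wnt1Cre-mTmG brain NSCs, and 862, 856 and 858 in Sox2-GFP brain NSCs. Both lung pNSC lines stood at the top, with 1745 and 1718 cpm in Lung-pNSC and 1373, 1359.7 and 1379 in Sox2-GFP lung pNSCs. The tail and DRG pNSCs held 718 and 733 (Tail-pNSC), 669, 659.5 and 679.6 (Wnt1Cre-mTmG Tail) and 443, 449 and 461 (Wnt1Cre-mTmG DRG). No 2 groups of neighbouring rank overlapped. Tail (17.9 and 14.5 cpm), NCSCs (12.7, 14.1 and 11.3) and Lung (7.44 and 7.04) all lay below every NSC and pNSC sample.

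Aldh1l1 (chr6:90486427-90600203, + strand) was the member that set brain NSCs apart from pNSCs within every experiment. Brain-NSC held 77.4 and 80.6 cpm, Wnt1Cre-mTmG brain NSCs 949.9, 969 and 979, and Sox2-GFP brain NSCs 499, 501 and 497. In pNSCs it was at 12.4 and 9.55 (Lung-pNSC), 4.8 and 5.83 (Tail-pNSC), 10.5, 10.8 and 10.7 (Wnt1Cre-mTmG Tail), 109.8, 116 and 119 (Wnt1Cre-mTmG DRG) and 53.3, 52.8 and 54.6 (Sox2-GFP lung). Across experiments the groups did not sort by origin, since the Wnt1Cre-mTmG DRG pNSCs lay above Brain-NSC. Lung held 21.7 and 21.8 cpm and Tail 8.76 and 8.87, both above the pNSCs of the same organ in the Nes-GFP experiment. NCSCs were lowest, at 2.08, 2.88 and 4.49. Exons of 2 further RNAs, Gm45901 on the same strand and Gm15756 on the opposite, lie within the gene.

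Aqp4 lies on chromosome 18 of the same build and spanned 475-fold among the NSC and pNSC groups. It was at 7.15 and 4.63 cpm in Brain-NSC, 113, 115 and 112 in Wnt1Cre-mTmG brain NSCs, and 237, 246 and 243 in Sox2-GFP brain NSCs. The pNSCs ranged from 0.514 and 0.507 cpm (9 and 10 counts) in Tail-pNSC, over 3.3, 3.3 and 3.64 in Sox2-GFP lung and 8.25 and 7.54 in Lung-pNSC, to 54.1, 46.3 and 50.5 in Wnt1Cre-mTmG DRG and 57.7, 60.8 and 59.7 in Wnt1Cre-mTmG Tail pNSCs. Both pNSC groups of the Wnt1Cre-mTmG experiment therefore lay above the brain NSCs of the Nes-GFP experiment. Lung, whose bronchial epithelium is known to use this channel, held 11.1 and 9.23 cpm. It was at 0.0463, 0.189 and 0.525 cpm in NCSCs (1, 4 and 9 counts) and at 0 and 1 count in Tail.

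Gja1 (chr10:56377330-56402513, + strand) is used by many cell types, and its highest level was in Tail, at 604 and 613 cpm. Brain NSCs held 72.5 and 70.9 in Brain-NSC, 178, 169.5 and 173 in Wnt1Cre-mTmG brain NSCs, and 415, 409 and 408 in Sox2-GFP brain NSCs. The pNSCs held 55.2 and 58.4 (Lung-pNSC), 113 and 114 (Tail-pNSC), 215, 217 and 217 (Wnt1Cre-mTmG Tail), 70.6, 75.7 and 69.7 (Wnt1Cre-mTmG DRG) and 56.1, 55.4 and 53.8 (Sox2-GFP lung). The 2 lung pNSC lines were lowest and overlapped, as did the DRG pNSCs and Brain-NSC. Lung had 100 and 104 cpm and NCSCs 127, 129.7 and 107. Per kilobase, Gja1 made up 93.9% and 91.2% of the summed level of Gja1, Gjb6, Gjb2 and Gjc1 in Wnt1Cre-mTmG and Sox2-GFP brain NSCs. Gjc1 (connexin 45) made up the larger part in Lung-pNSC (62.8%), Sox2-GFP lung pNSCs (56.7%) and NCSCs (62.4%).

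S100b (chr10:76253853-76261159, + strand) is made by Schwann cells as well as astrocytes. It was at 39.9 and 36.5 cpm in Brain-NSC, 16.9, 11.8 and 14.5 in Wnt1Cre-mTmG brain NSCs, and 67.4, 66.1 and 66 in Sox2-GFP brain NSCs. The pNSCs held 61.6 and 57.8 (Lung-pNSC), 4.91 and 5.78 (Tail-pNSC), 8.17, 8.6 and 9.31 (Wnt1Cre-mTmG Tail), 10.3, 11.2 and 11 (Wnt1Cre-mTmG DRG) and 18.1, 18.2 and 17.9 (Sox2-GFP lung). Both tail lines were thus at the low end, together with the DRG line. NCSCs, with 55.8, 47 and 67.2 cpm, overlapped Lung-pNSC, and Tail, with 40.6 and 39.7, lay beside Brain-NSC, while Lung had 1.68 and 1.25. NCSCs and Tail also had the highest sums of Schwann and neural crest markers (870.1 to 887 cpm in Tail). In the other groups S100b went with that sum in some and not in others. Among the NSC and pNSC groups, Sox2-GFP brain NSCs were highest in both (68.1 to 72.9 cpm of these markers). Tail-pNSC was lowest in both (3.83 to 3.85 cpm). Lung, low in S100b, had 89.9 to 92.4 cpm, and Lung-pNSC, high in S100b, had 9.32 to 9.44. The part of these markers in the S100b level was not tested.

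Prom1 (chr5:43993620-44102032, - strand) gave few counts in the Nes-GFP experiment. It had 0 and 4 counts in Brain-NSC (0 and 0.195 cpm), 8 and 11 in Lung-pNSC (0.379 and 0.614 cpm) and 13 and 12 in Tail-pNSC (0.743 and 0.608 cpm). Wnt1Cre-mTmG brain NSCs held 4.11, 4.26 and 4.22 cpm, Wnt1Cre-mTmG Tail pNSCs 15.9, 15 and 14.9, and Wnt1Cre-mTmG DRG pNSCs 1.61, 1.97 and 1.63. In the Sox2-GFP experiment brain NSCs held 9.91, 11 and 11.5 cpm and lung pNSCs 3.3, 2.28 and 2.44. Whole tissue was high, with 42.5 and 45.3 cpm in Lung and 15 and 15.4 in Tail, which overlapped the Wnt1Cre-mTmG Tail pNSCs, and NCSCs held 3.8, 3.36 and 3.96. Group means of NSCs and pNSCs spanned 157-fold, with Brain-NSC lowest, a value that rested on its few counts, since the span was 78.4-fold without the first Brain-NSC sample and 30.7-fold without that group. Prom1 is also known from epithelia, and the 6 lung epithelial markers summed to 28343 to 29029 cpm in Lung against 18 to 60.9 in the NSC and pNSC groups. Endothelial markers (4598 to 4687 cpm) and leukocyte markers (4371 to 4387 cpm) were high in Lung as well. The part of any of these cell types in the Prom1 level was not tested. In Lung-pNSC Sftpc, Sftpb, Scgb1a1, Epcam and Nkx2-1 were all at 0. The sum of 20.8 to 23.4 cpm there came from the 1 remaining lung epithelial marker alone. An antisense RNA, Gm16401, shares exon sequence with Prom1.

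The pNSCs were compared with the brain NSCs of their own experiment in 5 comparisons, which ask how alike peripheral and brain lines are. Of 50 member values, 22 were called, 5 higher and 17 lower in pNSCs, where 8.71% to 18.2% of all genes tested were called in each comparison. Fabp7, Slc1a3 and Aldoc were called in none of the 5, with log2 differences of -0.48 to 0.29, -0.86 to 0.62 and -0.67 to 0.67. Aldh1l1 was lower in all 5, by 7.17-fold or more. Aqp4 was lower in 3, S100b and Gja1 in 2 each, and Glul, Slc1a2 and Prom1 were called in both directions.

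**Figure D2:**
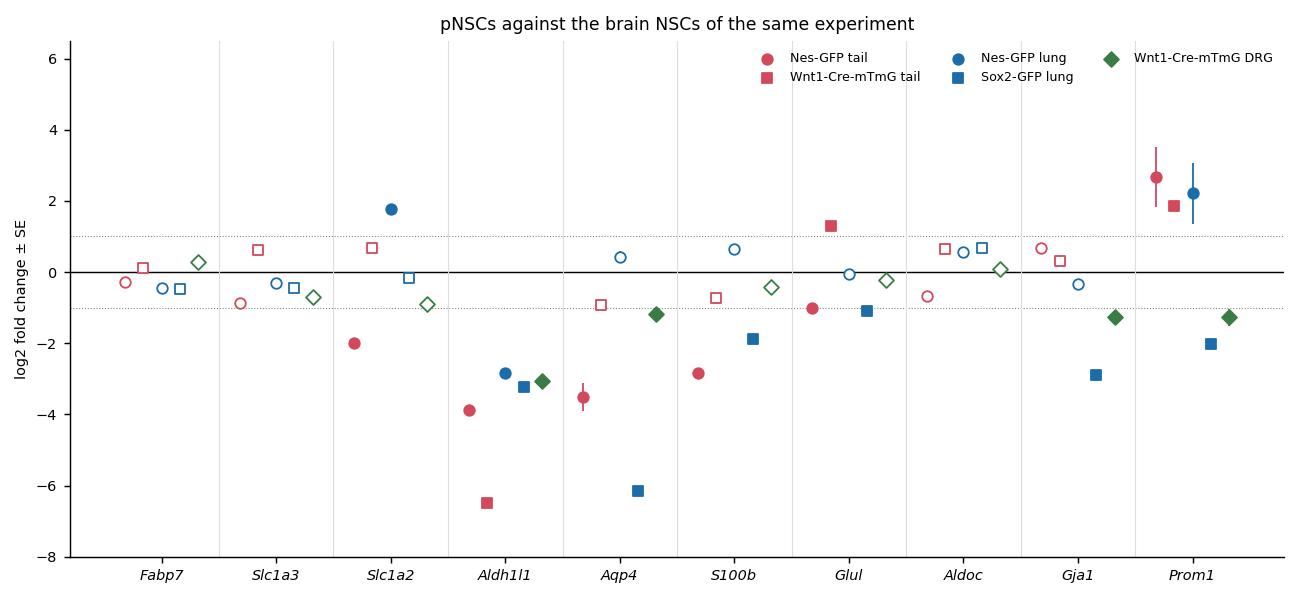
Log2 fold change of each member in 5 comparisons of pNSCs with the brain NSCs of the same experiment, with standard errors; filled markers were called, open ones were not, and dotted lines mark 2-fold. Aldh1l1 lies below the lower line in all 5, from -2.84 to -6.50, while Fabp7, Slc1a3 and Aldoc stay between the lines.

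Tail-pNSC differed from Brain-NSC in 6 members, where 10.9% of the 16948 genes tested were called in either direction. Lower in Tail-pNSC were Aldh1l1 (log2 fold change -3.88 ± 0.12, 14.8-fold), Aqp4 (-3.51 ± 0.39), S100b (-2.83 ± 0.12), Slc1a2 (-2.00 ± 0.04) and Glul (-1.02 ± 0.03), the last close to the 2-fold limit. Prom1 was higher, at 25 against 4 counts, a ratio of 6.67 with a 95% exact counting interval of 2.3 to 26.4 that covers counting error only, and an edgeR adjusted p of 0.000255, the largest of the 6. That value rested on the Brain-NSC samples, since its log2 fold change was 2.67 with both, 1.75 without the first and 6.61 without the second. The median over the members was -0.94, against 0 over all genes tested. Gja1, at 0.66 ± 0.04, and Fabp7, at -0.27 ± 0.03, stayed within 2-fold.

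Lung-pNSC differed from Brain-NSC in 3 members, where 8.71% of genes were called, with a median of 0.19 against 0. Aldh1l1 was lower (-2.84 ± 0.09) and Slc1a2 higher (1.76 ± 0.03, 3.4-fold). Prom1 was higher at 19 against 4 counts, a ratio of 4.91 (exact interval 1.63 to 19.9, edgeR adjusted p = 0.00757). It was not called without the first Brain-NSC sample (log2 fold change 1.28, edgeR adjusted p = 0.204), nor without the second Lung-pNSC sample (1.85, edgeR adjusted p = 0.0979). Without the second Brain-NSC sample it was 6.14. Aqp4 was at 0.42 ± 0.17 and S100b at 0.64 ± 0.07, both within 2-fold.

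In the Wnt1Cre-mTmG experiment, Tail pNSCs differed from brain NSCs in 3 members, where 18.2% of the 14448 genes tested were called. Aldh1l1 was 90.2-fold lower (-6.50 ± 0.09), the largest member difference in the 5 comparisons. Prom1 (1.87 ± 0.13) and Glul (1.29 ± 0.04) were higher, and the largest edgeR adjusted p of the 3 was 5.66e-11. Aqp4 was at -0.93 ± 0.07, short of 2-fold, and the median over the members was 0.47 against 0.0039 over all genes. The raised fibroblast marker sum of these samples, 466 to 477 cpm against 12.2 to 15.7 in their brain NSCs with all 6 markers present, stood beside these values, and its part in them was not tested.

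The DRG pNSCs were lower than the same brain NSCs in 4 members and higher in none, where 9.53% of genes were called in either direction. These were Aldh1l1 (-3.07 ± 0.07), Prom1 (-1.27 ± 0.23), Gja1 (-1.27 ± 0.06) and Aqp4 (-1.17 ± 0.08), with a largest edgeR adjusted p of 1.13e-05. Slc1a2 (-0.89 ± 0.04) and Slc1a3 (-0.69 ± 0.03) were within 2-fold, and the median was -0.79 against 0.01. In the Sox2-GFP experiment, lung pNSCs were lower than brain NSCs in 6 members and higher in none, where 15.7% of the 16234 genes tested were called. Aqp4 was 70.8-fold lower (-6.14 ± 0.10), followed by Aldh1l1 (-3.22 ± 0.03), Gja1 (-2.90 ± 0.03), Prom1 (-2.02 ± 0.13), S100b (-1.88 ± 0.05) and Glul (-1.10 ± 0.02). Their largest edgeR adjusted p was 1.22e-62, and the median was -1.49 against 0. Slc1a2, at -0.17 ± 0.02, Fabp7 and Slc1a3 stayed within 2-fold, and Aldoc was at 0.67 ± 0.02. Oligodendrocyte markers summed to 13.1 to 13.6 cpm in these lung pNSCs against 72 to 74.8 in their brain NSCs, and Schwann and neural crest markers to 10.6 to 11.2 against 68.1 to 72.9, and their part in the values was not tested.

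Against the cells of the organ they came from, pNSCs were compared in 3 comparisons, and both lung comparisons used the same Lung samples. Those samples belong to the Nes-GFP experiment, in which lung pNSCs came from adults, so that in the comparison with the postnatal Sox2-GFP lung pNSCs the cell state cannot be told apart from reporter line, experiment or age. Fabp7, Slc1a3, Slc1a2 and Aldoc were higher in pNSCs in all 3, by 29.7-fold or more. Prom1 was lower in all 3. The share of all genes called was itself large there, from 46.7% to 56.3%.

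**Figure D3:**
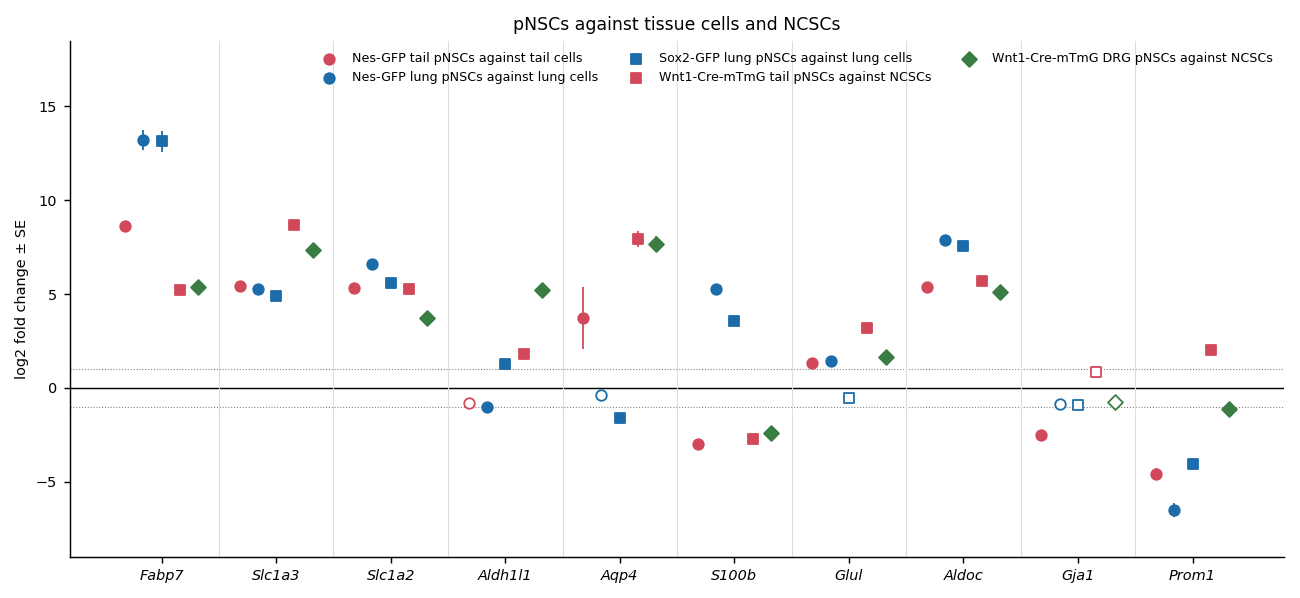
Log2 fold change of each member in pNSCs against cells of the same organ, and in both Wnt1Cre-mTmG pNSC lines against DRG NCSCs, with standard errors. Filled markers were called, open ones were not, and dotted lines mark 2-fold. In the 3 comparisons with cells of the same organ, Fabp7, Slc1a3, Slc1a2 and Aldoc lie far above the upper line. Prom1 lies below the lower line in those 3. With NCSCs as the reference, Prom1 is above the upper line for the tail line (2.04) but below the lower line for the DRG line (-1.10).

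Tail-pNSC differed from Tail in 9 members, 6 higher and 3 lower, where 46.7% of genes were called. Fabp7 was 396-fold higher (8.63 ± 0.11), Slc1a3 43.7-fold, Aldoc 41.9-fold, Slc1a2 40.6-fold and Glul 2.49-fold. Aqp4 was called on 19 against 1 counts (ratio 18.4, 95% interval 2.93 to 765, edgeR adjusted p = 0.000321), and its log2 fold change moved from 3.75 to 2.79 without the first Tail sample and to 6.27 without the second. Prom1 (-4.57 ± 0.33), S100b (-2.99 ± 0.13) and Gja1 (-2.51 ± 0.04) were lower than in whole tail, a tissue in which fibroblast markers summed to 73426 to 75341 cpm and Schwann markers were present. The median over the members was 2.53, against -0.16 over all genes.

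Lung-pNSC differed from Lung in 8 members, 6 higher and 2 lower, where 55.0% of genes were called. Fabp7 had 79238 counts in the 2 Lung-pNSC samples and 7 in the 2 Lung samples, a ratio of 10358 (95% counting interval 5027 to 25764). Its fitted log2 fold change was 13.20 ± 0.55, and 14.07 without the second Lung sample. Aldoc was 233-fold, Slc1a2 97.6-fold, S100b 39.2-fold, Slc1a3 38.9-fold and Glul 2.75-fold higher. Prom1 was 90.9-fold lower, and Aldh1l1 was at -1.01 ± 0.10, a call at the limit that was lost with upper-quartile scaling (-0.93), with no filter (-0.95), in a fit over all 28 samples (-0.97) and without either Lung sample (-0.973 and -0.997) or the second Lung-pNSC sample (-0.84). The median was 3.37 against -0.15.

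Sox2-GFP lung pNSCs also differed from Lung in 8 members, 6 higher and 2 lower, where 56.3% of genes were called. Fabp7 (123814 against 7 counts, ratio 10056, interval 4881 to 25013) led again, with a fitted log2 fold change of 13.13, 12.53 without the first Lung sample and 14.00 without the second. Aldoc was 186-fold, Slc1a2 47.4-fold, Slc1a3 29.7-fold and S100b 12-fold higher. Aldh1l1, at 1.28 ± 0.06, was called higher here and lower in Lung-pNSC. Prom1 was 16.6-fold lower and Aqp4 3.03-fold lower, and Glul, at -0.54 ± 0.03, was below Lung within 2-fold. The median was 2.43 against -0.12.

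The NCSCs served as the neural crest reference of the Wnt1Cre-mTmG experiment. They came from adult wild-type mice, so that in every comparison with them cell type cannot be told apart from genotype. In those with the postnatal pNSCs it cannot be told apart from age either. Against Wnt1Cre-mTmG brain NSCs, 7 members were lower in NCSCs and 1 higher, where 36.9% of genes were called. Aqp4 was 465-fold, Aldh1l1 312-fold, Slc1a3 267-fold, Fabp7 34.7-fold, Aldoc 32.9-fold, Slc1a2 24.3-fold and Glul 3.68-fold lower. S100b alone was higher (1.98 ± 0.13), and the largest edgeR adjusted p among the 8 was 1.2e-10. Aqp4, with 1, 4 and 9 counts in NCSCs, had a log2 fold change of -8.86, and of -9.81 without the third NCSC sample. Gja1 (-0.50 ± 0.06) and Prom1 (-0.17 ± 0.16) were within 2-fold, and the median was -4.82 against 0.01.

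Tail pNSCs of the Wnt1Cre-mTmG line differed from NCSCs in 9 members, 8 higher and 1 lower, where 37.9% of genes were called, and DRG pNSCs also in 9, 7 higher and 2 lower, where 38.3% were. The 3 comparisons share the NCSC or brain samples and are given side by side. Slc1a3 was 412-fold higher in Tail pNSCs and 165-fold higher in DRG pNSCs, Fabp7 37.3-fold and 42.3-fold, and Aldoc 52-fold and 34.9-fold. S100b, the member shared with Schwann cells, was 6.54-fold and 5.26-fold lower. DRG pNSCs and NCSCs came from DRG, of postnatal Wnt1Cre-mTmG and of adult wild-type mice. Prom1 was lower in DRG pNSCs than in NCSCs (-1.10 ± 0.22) but higher in Tail pNSCs (2.04 ± 0.11). Aqp4 was at 7.93 ± 0.42 and 7.69 ± 0.42 on the log2 scale, and at 8.89 and 8.65 without the third NCSC sample. The medians were 4.19 and 4.42, against -0.0020 and -0.0035 over all genes, and the largest edgeR adjusted p among the called members were 2.44e-09 and 7.4e-06.

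Lines of different organs within an experiment were compared directly. Tail-pNSC differed from Lung-pNSC in 6 members, where 12.9% of genes were called, with a median of -1.01 against 0. Aqp4 was 15.2-fold, Slc1a2 13.6-fold, S100b 11.1-fold, Aldoc 2.37-fold and Aldh1l1 2.06-fold lower in Tail-pNSC, and Gja1 was 2.02-fold higher. The last 2 lay at the limit, and Aldh1l1 fell short of it without the first Tail-pNSC (-0.92) or the first Lung-pNSC sample (-0.83), and Gja1 with upper-quartile scaling (0.98) or without the first Lung-pNSC sample (0.97). Glul, at -0.98 ± 0.03, crossed it with upper-quartile scaling (-1.01).

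Wnt1Cre-mTmG Tail pNSCs differed from DRG pNSCs in 6 members, where 18.0% of genes were called. Prom1 (8.82-fold), Gja1 (3.01-fold), Slc1a2 (2.95-fold), Glul (2.83-fold) and Slc1a3 (2.49-fold) were higher in Tail pNSCs and Aldh1l1 was 10.7-fold lower, with a largest edgeR adjusted p of 6.94e-13. The median was 0.95 against 0.01. Fabp7 was called in neither comparison of organs, at 0.18 ± 0.03 and -0.18 ± 0.06. Slc1a2 and Glul were higher in the tail line than in the DRG line, and Slc1a2 was lower in the tail line than in the lung line of the Nes-GFP experiment.

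The 3 brain NSC groups give the scale on which lines of the same organ differed. Line, experiment and, where it applied, age cannot be told apart in these comparisons. Wnt1Cre-mTmG brain NSCs differed from Brain-NSC in 7 members, where 12.5% of genes were called. Aqp4 (19.3-fold), Aldh1l1 (12.2-fold) and Gja1 (2.42-fold) were higher in the Wnt1Cre-mTmG line, as was Prom1 at 140 against 4 counts (ratio 44.8, 95% interval 17.1 to 167). Aldoc (2.72-fold), S100b (2.64-fold) and Glul (2.17-fold) were lower, and the median was -0.04 against 0.

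**Figure D4:**
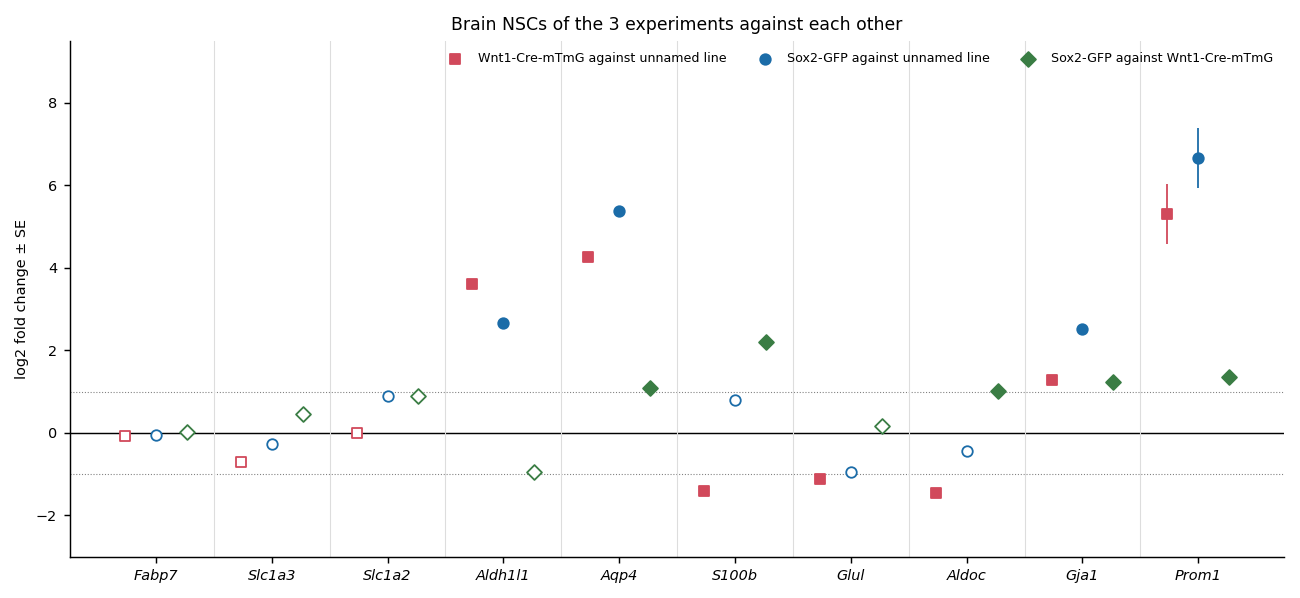
Log2 fold change of each member between the 3 brain NSC groups, with standard errors; filled markers were called, open ones were not, and dotted lines mark 2-fold, with Brain-NSC given as the unnamed line. Fabp7 lies within 0.07 of 0 in all 3 comparisons, whereas Prom1 and Aqp4 were called in all 3.

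Sox2-GFP brain NSCs differed from Brain-NSC in 4 members, all higher, where 19.0% of genes were called. These were Aqp4 (41.2-fold), Aldh1l1 (6.32-fold), Gja1 (5.73-fold) and Prom1, the last at 626 against 4 counts (ratio 112, 95% interval 43.7 to 414). Both Prom1 values rested on the 4 counts of the second Brain-NSC sample, and the log2 fold changes of 5.30 and 6.67 were 4.39 and 5.76 without the first Brain-NSC sample and 9.21 and 10.58 without the second. Against Wnt1Cre-mTmG brain NSCs, the Sox2-GFP line was higher in 5 members, where 15.5% of genes were called. S100b was 4.59-fold, Prom1 2.57-fold, Gja1 2.37-fold, Aqp4 2.14-fold and Aldoc 2.02-fold higher, and the largest edgeR adjusted p was 2.83e-11. The medians of these comparisons were 0.84 and 0.95 against 0, and other markers moved with the values, without a test of their part. Oligodendrocyte markers summed to 72 to 74.8 cpm in the Sox2-GFP line and 12.2 to 13.4 in both others, and Schwann and neural crest markers to 68.1 to 72.9 in the Sox2-GFP line, 9.94 to 10.0 in Brain-NSC and 22.5 to 23.6 in the Wnt1Cre-mTmG line.

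Fabp7, Slc1a3 and Slc1a2 were called between no brain NSC groups, with log2 differences of at most 0.07, 0.71 and 0.89 in size. Aqp4, Gja1 and Prom1 were called between all 3. For Aldh1l1 the largest difference between brain lines was 3.61 on the log2 scale.

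A fit over all 28 samples tested the difference between the pNSC effects of separate experiments as a contrast, called an interaction below. For tail, the Wnt1Cre-mTmG effect less the Nes-GFP effect was called for 7 members, 6 with a positive and 1 with a negative difference, where 16.0% of the 17393 genes tested were called. For lung, the Sox2-GFP effect less the Nes-GFP effect was called for 6 members, all negative, where 14.1% were. Fabp7 was called in neither (0.38 ± 0.07 and -0.03 ± 0.07), and Aldoc only for tail (1.33 ± 0.05). These differences contain the reporter line, the experiment and the level of each brain NSC group, which cannot be told apart, and for lung also adult against postnatal origin.

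A further list of 30 genes of astrocytes and radial glia, all in the table, was counted in the same comparisons, with 28 of them tested in the Wnt1Cre-mTmG experiment. In Tail-pNSC against Brain-NSC 4 were higher and 14 lower, where 10.9% of all genes were called, with a median of -0.76 against 0 over all genes (-0.71 with genes at 0 in a group set to their bound). Gfap, the intermediate filament of astrocytes, was lower (-4.87 ± 0.76, 0.133 against 4.12 cpm), as were Clu (clusterin, -4.23 ± 0.29) and Hepacam (GlialCAM, -2.98 ± 0.04). Gjb6, a connexin of astrocytes, was at 0 in Tail-pNSC. Set against a floor of 3 counts in each Tail-pNSC library, it was at least 1.67-fold lower. In Lung-pNSC against Brain-NSC 2 were higher and 5 lower (8.71% of all genes called, median -0.24), with Hopx (-3.26 ± 0.28), Sparcl1 (2.88 ± 0.03), Slc6a11 (-2.10 ± 0.03) and Clu (-1.90 ± 0.14) leading. Sparcl1 is a secreted glycoprotein of astrocytes and Slc6a11 (GAT-3) takes up GABA.

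**Figure D5:**
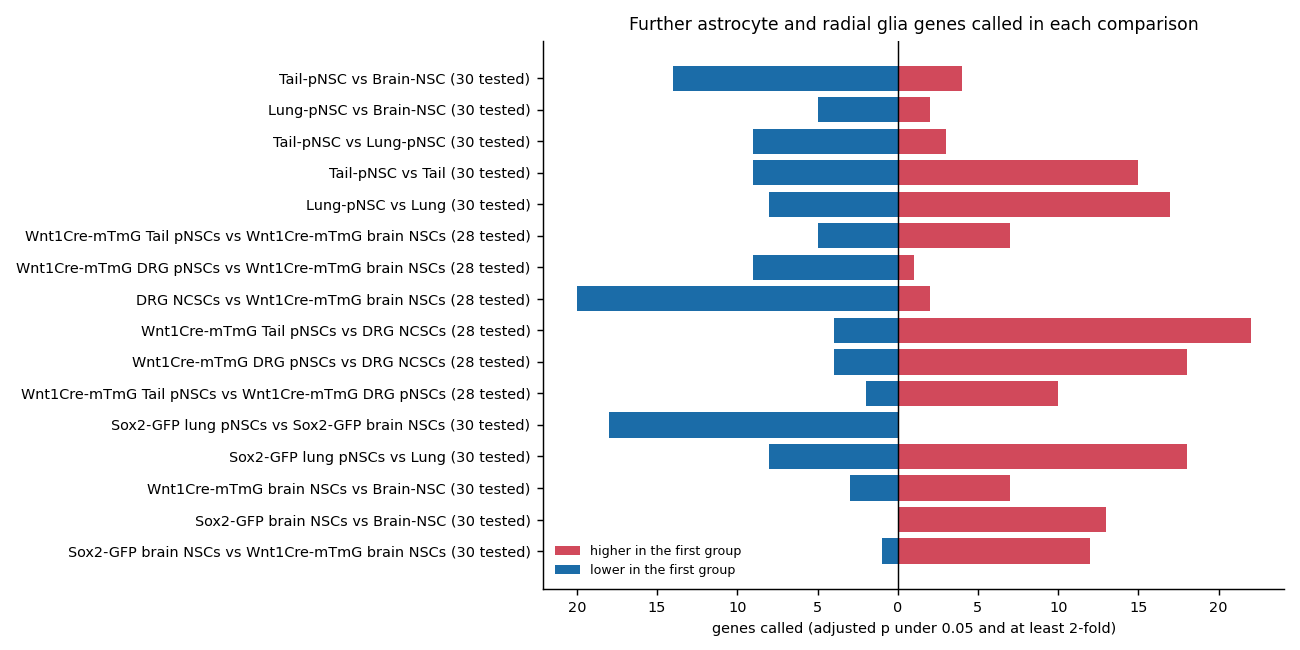
Number of the 30 further astrocyte and radial glia genes called in each of 16 comparisons, lower in the first group to the left and higher to the right of 0. The longest bars are those against NCSCs and tissue, and in Sox2-GFP lung pNSCs against Sox2-GFP brain NSCs all 18 called genes were lower.

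In the Wnt1Cre-mTmG Tail pNSCs 7 of 28 were higher and 5 lower than in brain NSCs (18.2% of all genes called, median 0.09 against 0.0039), led by Hepacam (-3.31 ± 0.04), Dio2 (-3.25 ± 0.26), Clu (-2.69 ± 0.11) and Sparcl1 (2.64 ± 0.04). Dio2 is the deiodinase that activates thyroid hormone in astrocytes. In the DRG pNSCs 1 was higher and 9 lower (9.53% of all genes called, median -0.47 against 0.01), led by Gfap (-5.84 ± 0.29, 0.795 against 46.4 cpm) and Dio2 (-3.08 ± 0.32). In Sox2-GFP lung pNSCs none was higher and 18 were lower than in brain NSCs (15.7% of all genes called, median -1.39), led by Hopx (-4.26 ± 0.28), Gfap (-4.23 ± 0.08) and Gjb6 (-3.96 ± 0.92). Clu was called lower in all 5 comparisons, from 2.18-fold in the DRG pNSCs (25.3 against 55.3 cpm) to 18.8-fold in Tail-pNSC (0.751 against 14.2).

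Against tissue, 15 of the 30 were higher and 9 lower in Tail-pNSC than in Tail (median 0.95), 17 higher and 8 lower in Lung-pNSC than in Lung (2.00), and 18 higher and 8 lower in Sox2-GFP lung pNSCs (2.51). Of all genes tested 46.7%, 55.0% and 56.3% were called there, more of them lower than higher (14.1% higher and 32.6% lower against Tail, 20.2% and 34.9% in Lung-pNSC, 21.3% and 34.9% in Sox2-GFP lung pNSCs). Ncan (neurocan) was at 524 against 0.0842 cpm, 975 against 0.198 and 1387 against 0.198 in the 3 comparisons. Slc6a11 was at 0 in Lung, and so at least 891-fold and 936-fold higher in the lung pNSC lines, whereas Hopx, which alveolar cells use, was at 529.7 cpm in Lung against 0.766 and 0.448. Against NCSCs, 22 of 28 were higher and 4 lower in Wnt1Cre-mTmG Tail pNSCs (median 4.22) and 18 higher and 4 lower in DRG pNSCs (3.40), while 2 were higher and 20 lower in NCSCs than in brain NSCs (-4.04), where 37.9%, 38.3% and 36.9% of all genes were called. Hes5, the Notch target that also counts among the NSC markers, was at 0 in NCSCs, at least 299-fold below the Tail and 149.7-fold below the DRG pNSCs. Gfap went the other way, at 90.3 cpm in NCSCs against 21.5 in Tail and 0.795 in DRG pNSCs, and it is known from Schwann cells too. It was singled out there after its values were seen.

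Between lines, 3 were higher and 9 lower in Tail-pNSC than in Lung-pNSC (median -0.68, or -0.52 with genes at 0 set to their bound), and 10 higher and 2 lower in Wnt1Cre-mTmG Tail than in DRG pNSCs (0.55), where Gfap (4.73 ± 0.29) led. Of all genes 12.9% and 18.0% were called in these comparisons. Between brain lines, 7 were higher and 3 lower in the Wnt1Cre-mTmG line than in Brain-NSC (median 0.05), 13 higher and none lower in the Sox2-GFP line (0.78), and 12 higher and 1 lower in the Sox2-GFP than in the Wnt1Cre-mTmG line (0.57), where 12.5%, 19.0% and 15.5% of all genes were called. Ndrg2, a marker of mature astrocytes, was at 13.5, 87.8 and 918 cpm in Brain-NSC, Wnt1Cre-mTmG and Sox2-GFP brain NSCs. Ttyh1, a membrane protein of glia, was at 30.1, 308 and 1293.

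A list of 23 paralogues and partners of the members was counted in the same way, of which 22 were tested in the Nes-GFP and Sox2-GFP experiments and 19 in the Wnt1Cre-mTmG experiment. These genes were named from it after their values were seen. Slc1a1, the neuronal glutamate transporter, had a called log2 fold change against brain NSCs of -1.86 in Tail-pNSC, -2.29 in Lung-pNSC, -1.56 in Wnt1Cre-mTmG Tail and -3.17 in Sox2-GFP lung pNSCs. It was not called in the Wnt1Cre-mTmG DRG pNSCs (-0.26). Its levels were low, at 1.36 cpm in Tail-pNSC and 1.03 in Lung-pNSC against 4.99 in Brain-NSC. For Gjc1 the called values were 1.25 in Tail-pNSC, 2.75 in Wnt1Cre-mTmG Tail, 1.70 in Wnt1Cre-mTmG DRG and 1.08 in Sox2-GFP lung pNSCs. In Lung-pNSC it fell just short of 2-fold (0.996). Of the 8257 exon bases of Slc1a1, 2631 are shared with 4430402I18Rik on the opposite strand, and the strand setting of the counting was not stated. Of those tested, 8 were called in Tail-pNSC, 6 in Lung-pNSC, 10 in Wnt1Cre-mTmG Tail, 5 in DRG and 12 in Sox2-GFP lung pNSCs against brain NSCs, where 10.9%, 8.71%, 18.2%, 9.53% and 15.7% of all genes were called. The medians were -0.51, -0.64, 0.20, -0.07 and -0.78. With genes at 0 in a group set to their bound, the first, second and last were -0.30, -0.36 and -0.25. Some called genes lay far below 1 cpm in both groups, such as S100a4 in Tail-pNSC against Brain-NSC (0.0286 against 0.222 cpm). In NCSCs 10 were higher and 3 lower than in brain NSCs, where 36.9% of all genes were called, among them S100a4 (8.13) and S100a6 (8.34), calcium-binding relatives of S100b, and Aqp1 (8.93), a relative of Aqp4.

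Over the 11 group means of log2(cpm + 1), Aldoc ran closest to Slc1a3 among the members (Pearson r = 0.946), and Fabp7 to Aldoc (0.926), with Slc1a2 (0.87) and Slc1a3 (0.836) next. Slc1a2 ran closest to Aldoc (0.925) and then to Slc1a3 (0.897), while Fabp7 and Prom1 ran against each other (-0.672). Among the 14595 genes with a mean of at least 1 cpm, the nearest to Fabp7 were Dzip3 and Jakmip2 (0.996 each) and Fzd3 (0.995). The nearest to Slc1a3 were Idh3g (0.992) and Jam2 (0.988), to Aldoc Nkain3 (0.985), to Slc1a2 Dpy19l3 (0.975), to Prom1 Naxd (0.954) and to S100b Efhd1 (0.934). For Aldh1l1 the nearest was Zfand4 (0.919), for Glul Pyurf (0.916) and for Gja1 Clpx (0.91). The points are 11 means that share libraries and experiments, and the values describe likeness of pattern alone.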

How the data were processed

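PolyA-selected RNA of 28 samples was sequenced as single reads. Per the methods, the authors aligned reads with HISAT2 to GRCm38 and counted them per gene with htseq-count, with Cufflinks also named. The annotation release and strand setting were not given in the sources used here. The deposited table holds raw counts per gene, with no normalization by the authors, for 28244 genes, and its 28 columns matched the 28 labels by name. The member genes and all lists were chosen with earlier results of these data known.

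Counts were scaled by TMM and fitted with edgeR 4.0.16 (quasi-likelihood test, R 4.3.3) within each of the 3 experiments, with the 2 Lung samples also entering the Sox2-GFP fit. Comparisons of brain lines and the interactions used 1 fit over all 28 samples. Genes with low counts were removed by filterByExpr (minimum count 10, minimum total 15), which left 16948, 14448, 16234 and 17393 genes in the Nes-GFP, Wnt1Cre-mTmG, Sox2-GFP and joint fits. All 10 members passed in each. Genes were called at a Benjamini-Hochberg adjusted p below 0.05 with a change of 2-fold or more in either direction (log2 limit 1). The fits pool the spread over genes and groups, so that p-values of well-counted genes with 2 or 3 samples a group are small. Standard errors were Wald errors whose variance was never below counting error. Intervals and floors (3 counts in each library) cover counting error only. The code was tested on simulated counts.

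All 10 members, and of the further list at most 4 called genes per comparison by fold change, were named, except for a gene that is not reported here. Gene positions and lengths came from GENCODE M21 on GRCm38, and promoters from RefSeq on GRCm38.p6. Replicate numbers were taken not to pair samples, since correlations of their deviations lay between -0.0193 and 0.0312. Alternatives were DESeq2 1.42.0, upper-quartile scaling, no filter, a mean count of at least 100, only the groups compared, 1 joint fit, a replicate block, no fold limit and leaving out each sample.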

Additional observations from a re-analysis of the deposited data

Results flagged for a closer look

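The results below were picked out because the pNSC effect, pNSCs against the brain NSCs of the same experiment, differed between experiments by a test of the difference itself (edgeR, 1 fit over all 28 samples, adjusted p under 0.05 and at least 2-fold). For tail, the Wnt1Cre-mTmG effect exceeded the Nes-GFP effect on the log2 scale by 2.67 for Slc1a2, 2.57 for Aqp4, 2.30 for Glul, 2.09 for S100b, 1.48 for Slc1a3 and 1.33 for Aldoc. For Aldh1l1 the difference was -2.61, since it was 90.2-fold lower than in brain NSCs in the Wnt1Cre-mTmG line and 14.8-fold lower in the Nes-GFP line. The largest edgeR adjusted p among these 7 was 8.94e-09. Glul was called in both tail comparisons in opposite directions, 1.29 in the Wnt1Cre-mTmG line and -1.02 in the Nes-GFP line.

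For lung, the Sox2-GFP effect lay below the Nes-GFP effect by a difference of -6.58 for Aqp4, -4.23 for Prom1, -2.56 for Gja1, -2.53 for S100b, -1.94 for Slc1a2 and -1.07 for Glul. The largest edgeR adjusted p among these 6 was 7.37e-07. The value of Prom1 rested on the 0 and 4 counts of Brain-NSC, and was -3.33 without the first and -8.14 without the second of these samples. Reporter line, experiment and the level of the brain NSC group cannot be told apart in any of the 13 differences, and for lung neither can adult and postnatal origin.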

How the results depend on the processing

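Of 2133 member fold changes recomputed under the alternatives, 2103 kept their direction and their side of the call, 16 lost a call, 6 gained one and 8 changed sign. The sign changes concerned values near 0 or few counts. Slc1a2 in Wnt1Cre-mTmG brain NSCs against Brain-NSC (log2 fold change -0.0058) became 0.0299 with DESeq2, 0.0293 with a mean count of at least 100, 0.0044 with no filter and 0.0485 with upper-quartile scaling, and ranged from -0.0246 to 0.0293 when 1 sample was left out. Fabp7 in Sox2-GFP against Wnt1Cre-mTmG brain NSCs (0.0122) became -0.0166 with a mean count of at least 100. The tail interaction of Prom1 (-0.81) ranged from -4.72 to 0.11 when 1 sample was left out, at the ends without the second and the first Brain-NSC sample.

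With no limit on the fold change, the members called numbered 10 in Tail-pNSC and 9 in Lung-pNSC against Brain-NSC, 9 in Wnt1Cre-mTmG Tail and 8 in DRG pNSCs against their brain NSCs, 10 in Sox2-GFP lung pNSCs against theirs, and 9 in Sox2-GFP brain NSCs against each of the other brain lines. Leaving out 1 sample gave 2 to 3 members in Lung-pNSC against Brain-NSC, 4 to 6 in Tail-pNSC against Lung-pNSC, 7 to 8 in Lung-pNSC against Lung and 7 to 8 in the tail interaction, and unchanged counts in the other 14 comparisons. Over all genes, counts of calls came to 156% to 482% of those reported with no fold limit and to 49% to 63.9% with a mean count of at least 100, where fewer genes were tested. With the replicate number as a block, the member counts of the 13 comparisons within experiments were as reported (6 in Tail-pNSC against Brain-NSC, for instance) and none of 130 member values changed its call. Aldoc between the Sox2-GFP and Wnt1Cre-mTmG brain NSCs fell to 0.99 with a mean count of at least 100, and Gja1 against Lung passed the limit there (-1.03 and -1.07). The number of member-by-group means of at least 10 cpm was 84 with TMM and 83 with upper-quartile scaling. Below about 10 counts a group, as for Prom1 in Brain-NSC and Aqp4 in Tail, depth limited the values. The causes were not tested.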
